A study of Homo sapiens with 6 samples.

Results

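Genes of the NF-kappaB system were examined in H3K27ac peak lists of 2 human acute myeloid leukemia (AML) cell lines with and without knockdown of ANP32B. The set held 10 of 20007 protein-coding genes and was chosen by name, with earlier results of these data known. It held the subunit genes NFKB1, NFKB2, REL, RELA and RELB and the inhibitor genes NFKBIA and NFKBIE. The feedback regulators TNFAIP3 and BIRC3 and the cytokine gene TNF completed it. H3K27ac is the acetylated form of lysine 27 of histone H3 and lies at active promoters and enhancers. It was mapped by CUT&Tag, where antibody-bound Tn5 transposase cleaves and labels nearby chromatin. Kasumi-1 carries the fusion RUNX1::RUNX1T1, and MV4-11 carries a fusion of KMT2A and an internal tandem duplication of FLT3. The NC groups were control cells, labelled as untreated, while the study's knockdown experiments used a control hairpin, sh-NC. Whether the NC cells of these libraries carried that control hairpin is not stated in the sources used here. The sh-ANP32B groups carried a lentiviral short hairpin RNA against ANP32B, a nuclear protein that binds histones, and stable lines were selected with puromycin. Which hairpin was used for these libraries is not given in the sources used here.

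NF-kappaB is a family of dimeric transcription factors that share a Rel homology domain. In resting cells the dimers are held in the cytoplasm by inhibitors of the IkB family. Signals from TNF, interleukin-1 or Toll-like receptors activate the IkB kinases, the inhibitors are degraded, and the dimers enter the nucleus and bind kappaB sites in DNA. Several of the genes switched on in this way, NFKBIA and TNFAIP3 among them, encode proteins that shut the signal off again. In myeloid cells the pathway drives the expression of inflammatory cytokines and of survival genes.

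Each of the 4 groups had 1 peak list, called after replicates had been merged. There was therefore no spread between replicates, no test was possible, and every difference describes these libraries only. The lists gave positions and no heights, and the read depth is unknown. The values are thus extents, the number of bases under peaks, and not signal strengths, and more cells with the mark cannot be told apart from more mark per cell. The lists held between 22136 and 24523 peaks on chromosomes 1 to 22, X and Y, with a median width of 742 to 1044 bases. They covered 32712240 and 33674144 bases in the Kasumi-1 lists (NC first) and 27891707 and 23004402 in those of MV4-11. The targeted gene ANP32B had 3447 and 3432 bases in its promoter peaks in Kasumi-1 and 3433 and 2631 in MV4-11, but its promoter mark does not measure a knockdown that acts on the mRNA.

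Some markers of the cell lines did not follow the labels. Of the 4 genes chosen for MV4-11, HOXA9 had 4335 and 4707 bases of promoter peak in the Kasumi-1 libraries and 769 and 659 in the MV4-11 libraries. HOXA10 had 5001 in each Kasumi-1 library against 2648 and 1638, and FLT3 had 2028 and 2008 against 299 and 0, while MEIS1 had between 3103 and 3337 in all 4 libraries. Of the 4 genes chosen for Kasumi-1, RUNX1T1, POU4F1 and KIT had 0 in every library, and CD34 had 180 and 132 in Kasumi-1 and 0 in MV4-11. HOXA9, HOXA10 and FLT3 were thus wider in the other line, and MEIS1 favoured neither. CD34 went with the labels, but only by bases at the edge of its window. The smallest peaks of the Kasumi-1 lists were 357 and 354 bases wide (NC first), so the CD34 peaks reached past the window. Of all genes with a promoter peak in either NC list, 83.9% had fewer bases in MV4-11 than in Kasumi-1, so wider Kasumi-1 values were the rule and not limited to these markers. The myeloid regulator SPI1 had between 3008 and 3127 bases in all 4 libraries, and the 3 T cell and 3 epithelial genes had 0. The names Kasumi-1 and MV4-11 are used below as the labels give them, and statements that set the lines against each other depend on these labels.

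Promoter sequences were searched for letters that match the recognition site of NF-kappaB itself. RefSeq promoters (250 bases before to 50 after a start, build GRCh38.p14) were given for 8 of the 10 genes in 12 entries; RELB and NFKBIE had none. The kappaB consensus, a pattern of 10 bases searched on both strands with overlapping matches joined to 1 site, was found in 6 of the 8 genes at 11 sites. It occurred in 11.3% of the 35116 promoters of the same length. That share counts promoter entries, of which a gene can have several, so its unit differs from that of the 6 of 8 genes. A match is a stretch of letters and not a measured binding site. The 3 stretches that follow belong to genes whose peaks ended near their sites or were missing. They are written 5′ to 3′ on the strand of the gene, with matches in capitals.
NFKBIA, chr14:35404750-35404999, minus strand: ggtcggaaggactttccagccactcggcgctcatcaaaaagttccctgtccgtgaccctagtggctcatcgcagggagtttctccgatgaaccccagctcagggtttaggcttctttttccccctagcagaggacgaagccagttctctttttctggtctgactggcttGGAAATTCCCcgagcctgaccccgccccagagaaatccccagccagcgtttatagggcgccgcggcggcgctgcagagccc
TNFAIP3, chr6:137867009-137867213, plus strand: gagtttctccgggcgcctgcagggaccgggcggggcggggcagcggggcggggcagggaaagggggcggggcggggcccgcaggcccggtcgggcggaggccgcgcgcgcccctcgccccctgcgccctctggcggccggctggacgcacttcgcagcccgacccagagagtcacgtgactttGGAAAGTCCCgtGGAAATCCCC
BIRC3, chr11:102317234-102317483, plus strand: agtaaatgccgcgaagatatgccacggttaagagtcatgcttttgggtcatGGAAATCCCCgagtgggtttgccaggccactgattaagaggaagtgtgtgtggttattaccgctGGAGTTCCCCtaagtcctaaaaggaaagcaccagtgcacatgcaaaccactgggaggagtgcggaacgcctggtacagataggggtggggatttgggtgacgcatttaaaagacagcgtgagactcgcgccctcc

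The NFKBIA match began 81 bases before the start. TNFAIP3 had 2 matches at positions -67 and -55, separated by only a few bases, and BIRC3 had 2 at positions -199 and -135. The remaining matches were in the subunit genes, of which 1 from each gene is shown, with neighbouring bases, because these sites lay under a peak in all 4 libraries.
NFKB1, chr4:102501300-102501329, plus strand: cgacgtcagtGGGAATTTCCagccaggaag
REL, chr2:60881518-60881546, plus strand: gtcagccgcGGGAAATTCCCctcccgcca
NFKB2, chr10:102395674-102395703, plus strand: tggtattttcGGGACTTTCCtaagctgctc

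The NFKB1 match was at position -49, that of REL at -47 and that of NFKB2 at -21 from a RefSeq start. NFKB2 had 4 sites near a pair of starts, at -176 and -21 from the start at 102395705 and at -107 and -78 from the start at 102394578. TNF and RELA had no match in these windows, and TNF had the letters TATAAA on its own strand at position -29. NFKBIA had them on the opposite strand only, at -33. TATAAA occurred in 11.5% of all promoters of this length, counted on both strands.

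The number of bases under peaks was first compared around each start. The window extended 2500 bases either way from the canonical GENCODE v44 start, 5001 bases in all, on hg38. A promoter peak was present at 8 of the 10 genes in each Kasumi-1 library, where 47.7% of all protein-coding genes had one in NC and 45.3% in sh-ANP32B. In MV4-11, 7 had a promoter peak in each library, where the share of all genes was 35.8% in NC and 28.6% in sh-ANP32B. The genes with no promoter peak were BIRC3 and TNF in all 4 libraries and RELA in MV4-11. A missing peak means that none passed the caller's threshold and not that the mark was absent.

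**Figure D1:**
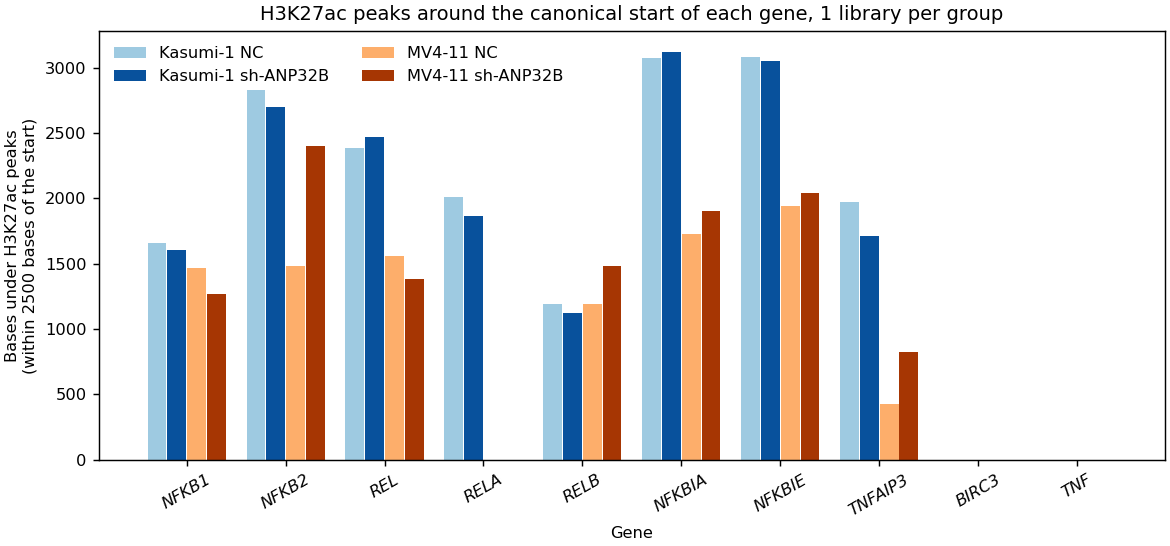
Bases under H3K27ac peaks (vertical axis) in the window of 5001 bases around the canonical start of each gene, with 1 bar for each of the 4 libraries and no error bars because each group had 1 list. BIRC3 and TNF have no bar, RELA has bars in Kasumi-1 only, and NFKB2 stands at 1479 with NC and 2398 with sh-ANP32B in MV4-11.

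NFKB1 (chromosome 4, start 102501359, plus strand) encodes the precursor of the p50 subunit. NFKB1 had 1657 bases under promoter peaks with NC and 1603 with sh-ANP32B in Kasumi-1, and 1470 with NC and 1269 with sh-ANP32B in MV4-11. It was lower after knockdown in each line, and sh-ANP32B divided by NC gave a ratio of 0.967 for Kasumi-1 and 0.863 for MV4-11. A single peak spanned the start in every library. It reached 608 and 610 bases upstream in the Kasumi-1 libraries and 827 and 772 in the MV4-11 libraries, and 1048, 992, 642 and 496 bases downstream.

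NFKB2 (chromosome 10, start 102395705, plus strand) encodes the precursor of the p52 subunit of the non-canonical pathway. NFKB2 had 2833 bases with NC and 2703 with sh-ANP32B in Kasumi-1, and 1479 with NC and 2398 with sh-ANP32B in MV4-11. The MV4-11 sh-ANP32B value was 1.62 times the NC value, while the Kasumi-1 ratio was 0.954. In MV4-11 NC the promoter was covered by 2 peaks of 720 and 759 bases, from -1534 to -815 and from -511 to 247 relative to the start. In MV4-11 sh-ANP32B there was 1 peak of 2398 bases, from -1557 to 840, so that the interval between the NC peaks lay under it as well. With that interval filled, by joining peaks at most 1000 bases apart or by 1 joining gap common to all lists, the MV4-11 NC value was 1782 and the difference was under 1.5 times. All 4 kappaB matches were under a peak in every library.

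REL (chromosome 2, start 60881574, plus strand) encodes c-Rel, a subunit prominent in blood cells. REL had 2385 bases with NC and 2468 with sh-ANP32B in Kasumi-1, and 1558 with NC and 1383 with sh-ANP32B in MV4-11. The ratio was 1.03 in Kasumi-1 and 0.888 in MV4-11. MV4-11 NC had 2 peaks, of 732 and 826 bases, the second from 813 to 1638. MV4-11 sh-ANP32B had 1 peak of 1383 bases that ended at 1038. Within 1000 bases of the start REL therefore had more bases in MV4-11 sh-ANP32B, 1345 against 920, the opposite of the wider window.

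RELA (chromosome 11, start 65662916, minus strand) encodes p65, the main activating subunit of the canonical pathway. RELA had 2011 bases with NC and 1863 with sh-ANP32B in Kasumi-1, and 0 in both MV4-11 libraries. Kasumi-1 NC had 1 peak across the start, from -946 to 1064. Kasumi-1 sh-ANP32B had 2 peaks in its place, of 1050 and 813 bases, and the start itself lay in the interval between them. The ratio in Kasumi-1 was 0.926, but RELA had 221 bases more in sh-ANP32B when peaks at most 1000 bases apart were joined.

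RELB (chromosome 19, start 45001464, plus strand) encodes the partner of p52. RELB had 1190 bases with NC and 1119 with sh-ANP32B in Kasumi-1, and 1188 with NC and 1484 with sh-ANP32B in MV4-11. The ratio was 0.940 in Kasumi-1 and 1.25 in MV4-11. The NC libraries of the lines differed by 2 bases only, the least of the 8 genes with a promoter peak in Kasumi-1. In MV4-11 the upstream edge was at the same base in both libraries, 386 bases before the start, and the downstream edge was at 801 in NC and 1097 in sh-ANP32B. The Kasumi-1 peaks lay almost wholly downstream, beginning at -14 in NC and at 56 in sh-ANP32B.

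NFKBIA (chromosome 14, start 35404749, minus strand) encodes IkB-alpha, the inhibitor that is degraded on signalling and then resynthesised as a direct NF-kappaB target. NFKBIA had 3078 bases with NC and 3123 with sh-ANP32B in Kasumi-1, and 1728 with NC and 1903 with sh-ANP32B in MV4-11. It was higher after knockdown in each line, with ratios of 1.01 and 1.10. In MV4-11 NC the peak began 59 bases after the start and ended at 1786. In MV4-11 sh-ANP32B it ran from -302 to 1600, and in the Kasumi-1 libraries from -720 to 2357 and 2402. The stretch printed above, with its kappaB match, was therefore outside the peak in MV4-11 NC and wholly under a peak in the other 3 libraries.

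NFKBIE (chromosome 6, start 44265551, minus strand) encodes IkB-epsilon, another cytoplasmic inhibitor. NFKBIE had 3083 bases with NC and 3051 with sh-ANP32B in Kasumi-1, and 1939 with NC and 2044 with sh-ANP32B in MV4-11. The ratio was 0.990 in Kasumi-1 and 1.05 in MV4-11, and with a window of 5000 bases to each side the MV4-11 difference was -249 bases. In Kasumi-1 a broad peak of 4509 bases in NC and 3767 in sh-ANP32B covered the start and reached past the end of the window. In MV4-11 a narrow peak at the start, of 387 bases in NC and 475 in sh-ANP32B, was followed by a separate wider peak of 2301 and 1964 bases inside the gene.

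TNFAIP3 (chromosome 6, start 137867259, plus strand) encodes A20, a ubiquitin-editing enzyme that ends NF-kappaB signalling. TNFAIP3 had 1975 bases with NC and 1708 with sh-ANP32B in Kasumi-1, and 427 with NC and 826 with sh-ANP32B in MV4-11. The MV4-11 ratio of 1.93 was the highest of the 7 genes with a promoter peak in that line and the Kasumi-1 ratio of 0.865 the lowest of 8. In MV4-11 both peaks lay downstream of the start: that of NC ran from 22 to 448 and that of sh-ANP32B from 31 to 856. Neither was as wide as 1000 bases, so TNFAIP3 had 0 in MV4-11 when narrower peaks were left out. In Kasumi-1 the peaks reached 890 and 617 bases upstream. The pair of kappaB matches lay under a peak in both Kasumi-1 libraries and in neither MV4-11 library.

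BIRC3 (chromosome 11, start 102317484, plus strand) encodes cIAP2, a ubiquitin ligase of the TNF receptor complex, and TNF (chromosome 6, start 31575565, plus strand) encodes the cytokine itself. BIRC3 and TNF had 0 bases under promoter peaks in all 4 libraries. The 2 kappaB matches of BIRC3 were thus outside peaks throughout. Over all 6 genes with a match, 9 of the 11 sites lay under a peak in each Kasumi-1 library. In MV4-11, 6 with NC and 7 with sh-ANP32B did so, and the site that differed was that of NFKBIA. The share of matches under a peak over all promoters was not counted. These counts therefore have no background and largely follow which genes had a promoter peak.

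**Figure D2:**
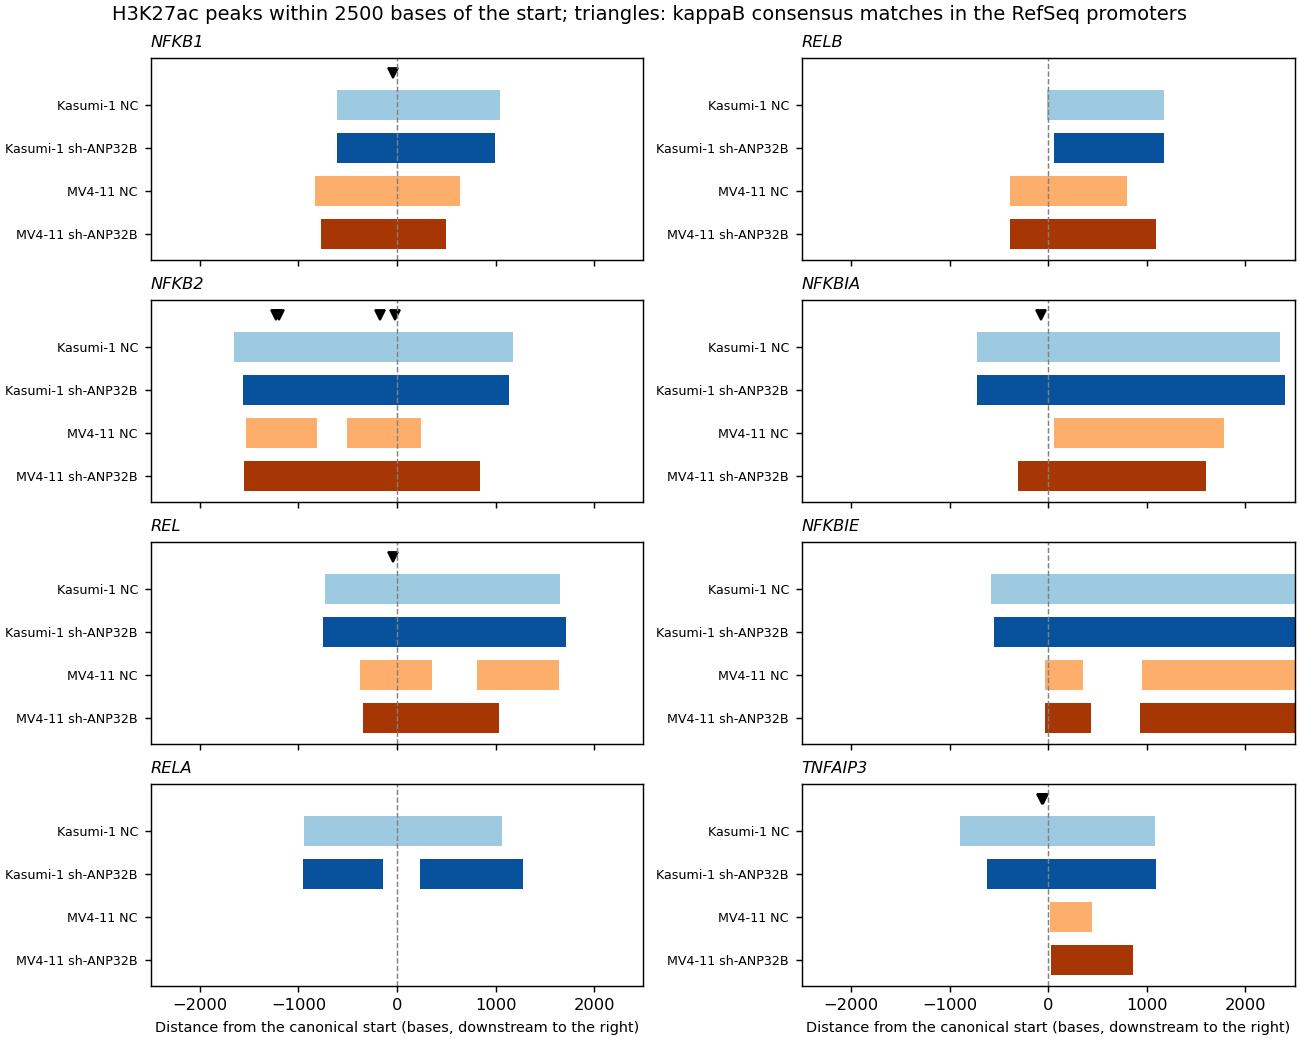
Peaks within 2500 bases of the canonical start for the 8 genes with a promoter peak, 1 row of bars per library, with distance from the start in bases on the horizontal axis (downstream to the right) and triangles at kappaB matches in RefSeq promoters; RELB and NFKBIE had no RefSeq entry. NFKBIA lacks peak cover over its match in MV4-11 NC only, and TNFAIP3 over its matches in both MV4-11 libraries.

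The knockdown was then compared with NC over the whole set. In Kasumi-1, 6 of the 8 genes with a promoter peak had fewer bases in sh-ANP32B and 2, REL and NFKBIA, had more, where 49.9% of the 9705 genes with a promoter peak in either library had fewer and 48.9% had more. The median difference was -62.5 bases over the 8 genes and 5 bases over all 8889 genes with a peak in both libraries. None of the 8 differed by 1.5 times or more, a size that 14.6% of all genes passed downward and 4.86% upward. None lost its promoter peak, against 6.79% of all genes with a promoter peak in NC.

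In MV4-11, 5 of the 7 genes with a promoter peak had more bases in sh-ANP32B, where 21.5% of the 7468 genes compared had more and 78.1% fewer. The 5 were NFKB2, RELB, NFKBIA, NFKBIE and TNFAIP3, and those with fewer were NFKB1 and REL. Among the 5412 genes with a promoter peak in both MV4-11 libraries, 23.9% had more. The median log2 ratio was 0.14 over the 7 genes and -0.27 over these 5412, and the median difference was 175 against -211 bases. NFKB2 and TNFAIP3 passed 1.5 times upward, as 7.28% of all genes did, and none of the 7 passed it downward, as 45% of all genes did. No gene of the set lost its promoter peak, against 24.3% of all genes with a promoter peak in MV4-11 NC. Summed over the 10 genes, bases under promoter peaks were 9789 with NC and 11307 with sh-ANP32B in MV4-11, in 10 and 8 peaks, and over all genes they were 9058530 and 6533780.

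**Figure D3:**
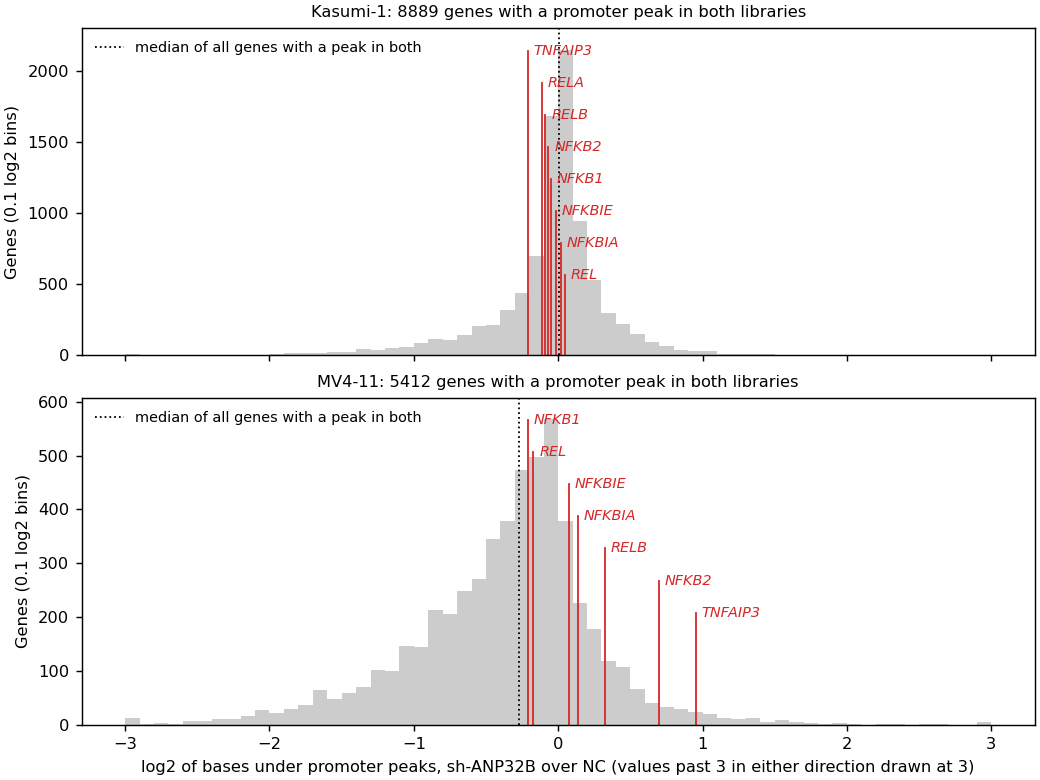
Histograms of the log2 ratio of bases under promoter peaks, sh-ANP32B over NC, for the 8889 genes of Kasumi-1 and the 5412 of MV4-11 with a promoter peak in both libraries (bins of 0.1), with the genes of the NF-kappaB set as red lines whose heights carry no value and the median of all genes dotted. In MV4-11 all 7 red lines lie to the right of the median of all genes, at -0.27, and 5 lie above 0.

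The NC libraries of the lines share their lists with the comparisons above, so their values are given beside them and not as further support. All 8 genes with a promoter peak in Kasumi-1 NC had fewer bases in MV4-11 NC, where 83.9% of the 9815 genes compared had fewer and 15.9% more. NFKB2, REL, RELA, NFKBIA, NFKBIE and TNFAIP3 passed 1.5 times downward in MV4-11 NC, as 61.9% of all genes did. None of the 8 passed it upward, as 573 of the 9815 genes did. TNFAIP3 in MV4-11 NC had 0.216 times the bases of Kasumi-1 NC. RELA was the 1 gene of 8 without a promoter peak in MV4-11 NC, against 27.9% of all genes with a promoter peak in Kasumi-1 NC.

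The wider surroundings were described by the locus, the gene body with 20000 bases to each side. The 10 loci held 24 peaks with NC and 26 with sh-ANP32B in Kasumi-1, and 32 with NC and 31 with sh-ANP32B in MV4-11. They covered 46344, 45166, 29381 and 29194 bases in the same order. In Kasumi-1, 5 genes had fewer bases in sh-ANP32B and 5 had more, where the shares of all genes were 46% and 53.8%. In MV4-11 there were also 5 with fewer and 5 with more, where 75.9% of all genes had fewer and 23.9% more. At the locus level none of the 10 differed by 1.5 times or more in Kasumi-1, a size that 8.79% of all genes passed downward and 5.65% upward. In MV4-11, BIRC3 passed it downward and NFKB2 upward, as 39.4% and 7.66% of all genes did. Between the NC libraries, 8 had fewer bases in MV4-11 and 2 had more, NFKB1 and REL, where 73.1% of all genes had fewer and 26.8% more.

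Of the subunit genes, NFKB1 and REL had peaks inside the gene in MV4-11 only. The NFKB1 locus had 1657, 1603, 1980 and 1860 bases under peaks in the order Kasumi-1 NC, Kasumi-1 sh-ANP32B, MV4-11 NC, MV4-11 sh-ANP32B, which is kept for the other loci. Its additional MV4-11 peak, of 510 bases in NC and 591 in sh-ANP32B, lay in intron 1 (chr4:102524806-102525315 in NC). The REL locus had 2826, 2850, 3754 and 2826 bases. The difference at REL in MV4-11 came from several peaks: that in exon 10, the last exon, had 664 bases in NC and 440 in sh-ANP32B, and that upstream, from -13944 to -12413 in NC, had 1532 and 1003, beside the promoter change given above. The upstream peak of REL was present in Kasumi-1 as well, with 441 and 382 bases.

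The loci of the other subunits held starts of neighbouring genes. The RELA locus had 8323, 9104, 3105 and 3118 bases, most of them at the promoter of SIPA1, downstream of RELA. A further peak just past the 3′ end of RELA, outside any other protein-coding gene, had 1579 bases with NC and 1860 with sh-ANP32B in Kasumi-1, was missing in MV4-11 NC and had 610 bases in MV4-11 sh-ANP32B (chr11:65652335-65652944). The RELB locus had 8082, 8536, 6056 and 6338 bases in 4, 6, 7 and 8 peaks. A peak in intron 4 of RELB was present in every library, with 1946, 1933, 1217 and 1072 bases. Upstream of RELB, inside the gene CLPTM1, peaks of 1158 and 789 bases in MV4-11 NC and of 1285 bases in MV4-11 sh-ANP32B had no counterpart in Kasumi-1. The NFKB2 locus had 4486, 4157, 1479 and 2398 bases, and its only peak beyond the promoter was that at FBXL15 and PSD in Kasumi-1.

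Among the inhibitors, the NFKBIA locus had 3078, 3123, 1728 and 2335 bases. Nothing but the promoter peak was present in 3 libraries, and MV4-11 sh-ANP32B had a further peak of 432 bases between genes, 13294 bases downstream of the start. The NFKBIE locus, which holds the starts of HSP90AB1 and SLC35B2, had 10187, 9358, 5718 and 5582 bases. In Kasumi-1 NC, NFKBIE had a peak of 495 bases over exons 4 and 5 that was missing in the other 3 libraries.

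For the feedback genes, the TNFAIP3 locus had 3938, 2833, 2328 and 2224 bases, so the locus was lower after knockdown in both lines although the promoter window was higher in MV4-11. The MV4-11 fall was small and turned to a rise, from 2328 to 2564, with a joining gap and minimum width common to all lists. The lines had peaks at different places inside TNFAIP3. In Kasumi-1 there was a peak of 805 bases at exon 7 in NC only, and 1 from intron 8 into exon 9 of 1158 bases in NC and 1125 in sh-ANP32B. In MV4-11 the peaks lay in intron 2, with 781 bases in NC and 2 peaks of 446 and 458 in sh-ANP32B, and further along exon 9, with 534 and 494. A peak of 586 bases past the 3′ end of TNFAIP3 was in MV4-11 NC only. The BIRC3 locus held 1 peak, of 1043, 1079 and 860 bases in Kasumi-1 NC, Kasumi-1 sh-ANP32B and MV4-11 NC, and none in MV4-11 sh-ANP32B. This peak lay at the start of BIRC2, the neighbouring gene for cIAP1, and not at BIRC3.

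The TNF locus had 2724, 2523, 2373 and 2513 bases. A peak at the 3′ end of NFKBIL1, from -16917 to -16067 relative to the TNF start in Kasumi-1 NC, was present in every library with 851, 723, 653 and 644 bases. In MV4-11 NC only, TNF had a further upstream peak of 506 bases. The other peak lay at LST1, downstream, with 1873, 1800, 1214 and 1869 bases. The lymphotoxin genes LTA and LTB, which flank TNF, had their starts in the locus, and no peak touched their promoter windows.

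**Figure D4:**
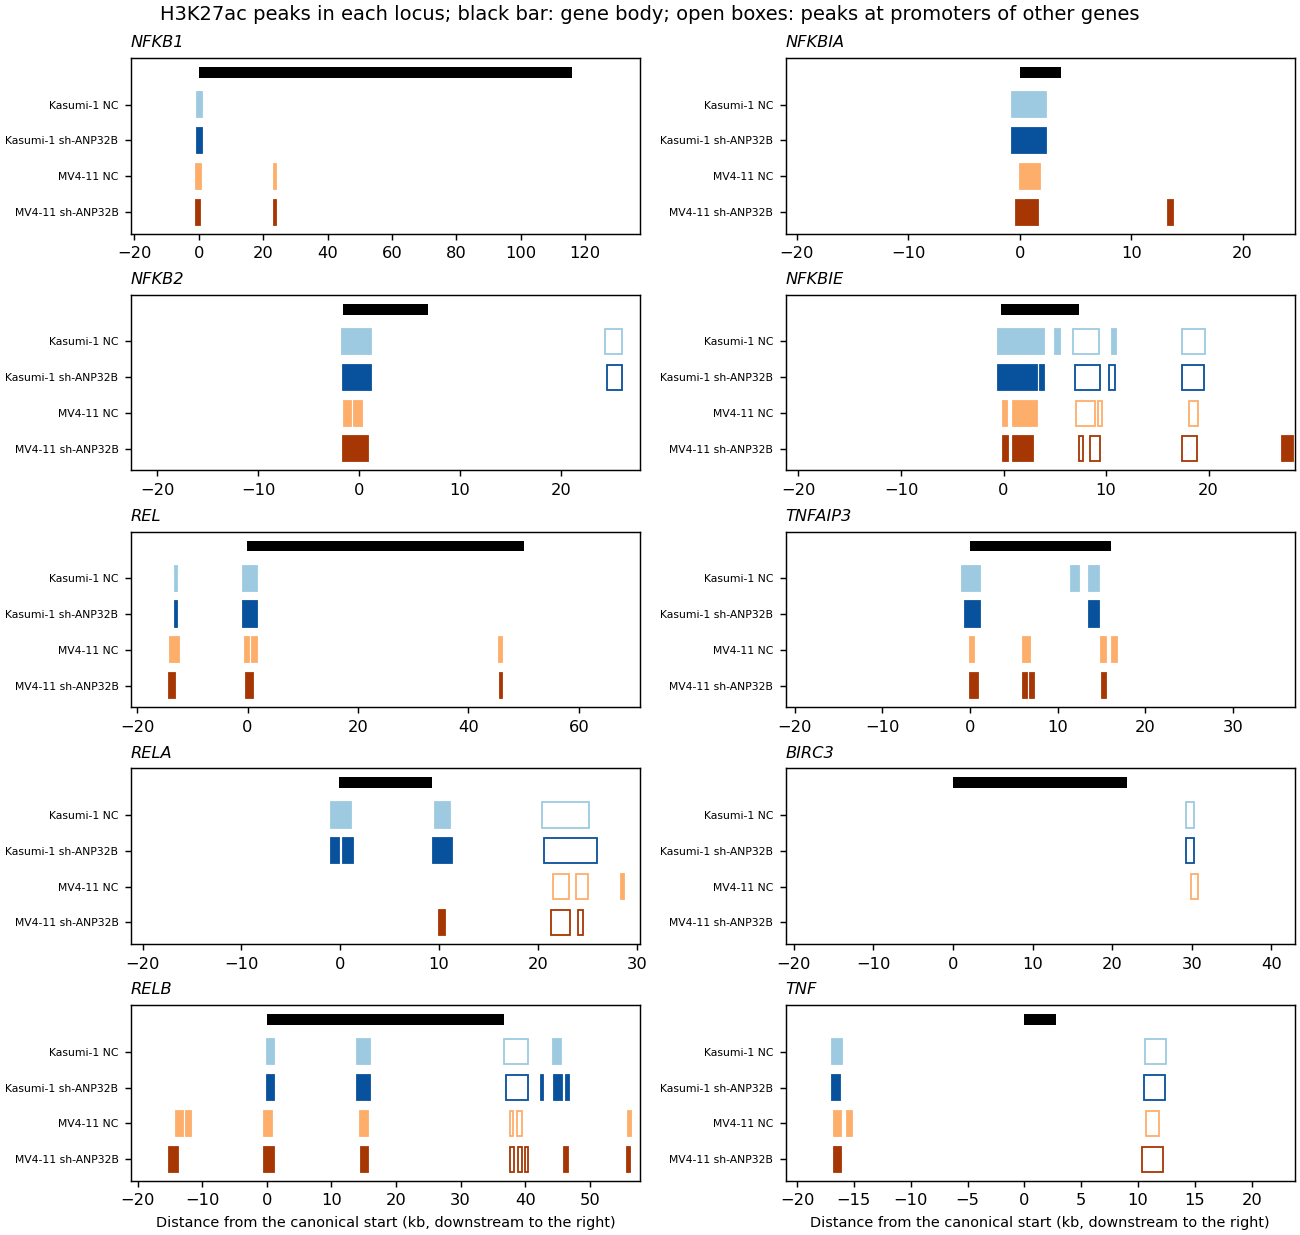
Peaks in the 10 loci, 1 row of boxes per library, with distance from the canonical start in kb (downstream to the right), a black bar for the gene body and open boxes for peaks that touch the promoter window of another protein-coding gene. BIRC3 has no peak of its own in any library, and TNFAIP3 has internal peaks at different places in Kasumi-1 and MV4-11.

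Peaks of the 4 lists were merged into regions to see which of them recurred. The 10 loci held 39 regions, and 15 of these (38.5%) had a peak in all 4 libraries, where 32.2% of the 34049 regions of the genome did. There were 5 regions with peaks in both Kasumi-1 libraries only (12.8%, all regions 14.1%) and 6 in both MV4-11 libraries only (15.4%, all regions 12.4%). Regions with a peak in MV4-11 NC alone numbered 4 (10.3%, all regions 9.41%) and in MV4-11 sh-ANP32B alone 2 (5.13%, all regions 7.67%). In Kasumi-1, 2 of the 24 NC peaks in the loci (8.33%) overlapped no sh-ANP32B peak and 2 of the 26 sh-ANP32B peaks (7.69%) overlapped no NC peak, where the shares of all peaks were 9% and 13.2%. In MV4-11 the numbers were 5 of 32 (15.6%) and 6 of 31 (19.4%), where the shares of all peaks were 29.1% and 17.7%. The NC share was thus below that of all MV4-11 peaks and the sh-ANP32B share close to it.

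Peaks that reached beyond a promoter window, or lay outside all of them, were joined to domains when no further than 12500 bases from each other, and the domains were ranked by their summed peak width. A wide promoter peak could therefore be part of a domain. The highest-ranked domain of the set in Kasumi-1 was in the RELA locus, at rank 791 of 7693 with NC and 699 of 8086 with sh-ANP32B. This domain reached from SIPA1 to just short of the 3′ end of RELA and held no base of the RELA gene. The peak at the SIPA1 promoter made up 4733 of its 6312 bases with NC and 5381 of 7241 with sh-ANP32B. In MV4-11 the best domain of the RELA locus, also outside the gene, was at rank 3138 of 9996 with NC and 1950 of 9272 with sh-ANP32B. TNFAIP3 ranked 3012 with NC and 4791 with sh-ANP32B in Kasumi-1, and 3155 and 3693 in MV4-11. NFKB2 and BIRC3 had no such domain in any library.

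Sequence under the peaks was compared with that under all peaks on the same build. The kappaB consensus occurred 0.885 and 0.864 times per kb under the peaks of the 10 loci in Kasumi-1 (NC first), and 1.09 and 1.10 times in MV4-11. Under all peaks the values were 0.483, 0.447, 0.391 and 0.381. The GC content of the peaks in the loci was 59.6%, 59.2%, 57.9% and 58.5%, and that of all peaks was 57.4%, 56.1%, 52.3% and 51.9%. The part of the GC content in the density of a GC-rich pattern was not tested. Of the 24, 26, 32 and 31 peaks in the loci, 14, 14, 14 and 16 held at least 1 match. The share of all peaks with a match was not counted, so these counts have no background.

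The rest of the pathway was read from 4 lists of 75 other genes. The list of kinases and other inhibitors had a promoter peak at 10 of 10 genes in Kasumi-1 NC and at 7 in each other library. The peak was lost at 3 of 10 genes in Kasumi-1 (30%), where 6.79% of all genes lost theirs. In MV4-11 it was lost at 0 of 7, where 24.3% of all genes lost theirs. In Kasumi-1 the genes with a peak under NC but not under sh-ANP32B were CHUK, the kinase IKK-alpha, with 597 bases in NC, MAP3K14, the kinase NIK that starts the non-canonical pathway, with 413, and NFKBIB, the inhibitor IkB-beta, with 398. These 3 had no promoter peak in MV4-11 either. IKBKB, the kinase IKK-beta, had a peak in every library, with 2199, 2319, 1565 and 1203 bases. The most bases in NC were at the nuclear inhibitor NFKBID in Kasumi-1, with 5001 in both libraries, and at the kinase IKBKE in MV4-11, with 2954 in NC and 3061 in sh-ANP32B.

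Receptors and adaptors had a promoter peak at 21 of 24 genes with NC and 19 with sh-ANP32B in Kasumi-1, and at 16 with NC and 10 with sh-ANP32B in MV4-11. The peak was lost at 6 of 16 genes in MV4-11, where 24.3% of all genes lost theirs, and at 2 of 21 in Kasumi-1, where 6.79% did. The 6 without a peak after knockdown in MV4-11 were MYD88, the adaptor of Toll-like and interleukin-1 receptors, with 766 bases in NC, TLR2 with 611, the kinase RIPK1 with 584, the signalling adaptor BCL10 with 548, the ubiquitin ligase TRAF6 with 417, and BIRC2 with 860. In Kasumi-1 each of these 6 had a promoter peak in both libraries, MYD88 with 3455 and 3563 bases. The 2 genes without a peak after knockdown in Kasumi-1 were IL1RAP with 1343 bases in NC and MALT1 with 1099. IRAK1, a kinase of the same receptors, had the most bases in each NC library, 4116 and 3446.

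Negative regulators had a promoter peak at 10, 9, 9 and 7 of 12 genes. The deubiquitinase CYLD had 1219 bases with NC and 0 with sh-ANP32B in Kasumi-1, and 0 with NC and 328 with sh-ANP32B in MV4-11. OTULIN with 709 bases, ITCH with 526 and TNIP2 with 455 had a promoter peak in MV4-11 NC but not in MV4-11 sh-ANP32B. The peak was lost at 3 of 9 genes in MV4-11, where 24.3% of all genes lost theirs. In Kasumi-1 it was lost at 1 of 10, where 6.79% of all genes lost theirs. The most bases in NC were at PDLIM2 in Kasumi-1, with 3376, and at the ribonuclease gene ZC3H12A in MV4-11, with 2446.

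Response genes had a promoter peak at 16, 16, 15 and 14 of 29 genes. Promoter peaks present in MV4-11 NC but not in MV4-11 sh-ANP32B were those of 4 genes of 15 (26.7%). They were the survival gene BCL2A1 with 818 bases, the transcription factor gene IRF1 with 610, IER3 with 387 and GADD45B with 70. The smallest MV4-11 NC peak was 289 bases wide, so the GADD45B peak reached past the window. Peaks wholly outside the window were not counted here. A promoter peak was gained in MV4-11 sh-ANP32B at 3 of the 14 response genes that had none in NC. Of all genes that had none in NC, 315 of 12854 gained a promoter peak. The 3 response genes were the cytokine gene IL1B with 357 bases, the chemokine gene CCL5 with 451 and CD83 with 321. TNFAIP2 had the most bases in each NC library, 4741 and 4056. Over all 75 genes in MV4-11, 33 had fewer bases after knockdown and 18 more (35.3%), and 13 of the 47 with a promoter peak in NC had none after knockdown (27.7%), beside the 21.5% and 24.3% of all genes given above. In Kasumi-1, 28 had fewer and 28 more, and 6 of 57 had none after knockdown (10.5%), while of all genes 49.9% had fewer, 48.9% more and 6.79% lost the peak.

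**Figure D5:**
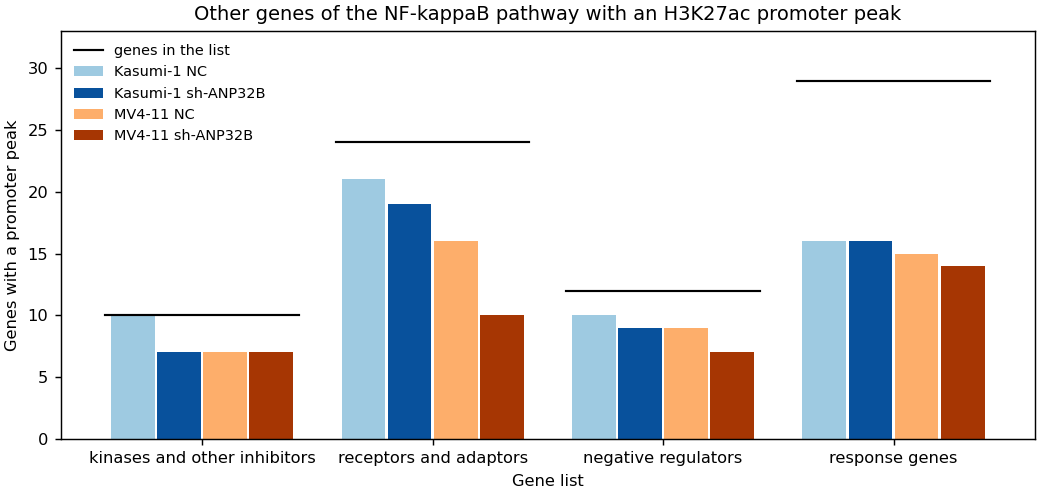
Number of genes with an H3K27ac promoter peak (vertical axis) in each of 4 lists of other NF-kappaB pathway genes, 1 bar per library, with a line at the number of genes in the list. Receptors and adaptors go from 16 genes in MV4-11 NC to 10 in MV4-11 sh-ANP32B, and the kinases and other inhibitors from 10 in Kasumi-1 NC to 7 in Kasumi-1 sh-ANP32B. Of all genes with a promoter peak in NC, 24.3% lost it in MV4-11 and 6.79% in Kasumi-1.

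For each gene of the set with a promoter peak, the protein-coding gene with the most similar promoter values was found by the absolute difference in bases summed over the 4 libraries. It was NSFL1C for NFKB1 (92 bases in sum), KDM6B for NFKB2 (383), YWHAG for REL (217), AMMECR1L for RELA (27), STAM for RELB (275), ARMC5 for NFKBIA (361), OGFOD2 for NFKBIE (67) and SETD4 for TNFAIP3 (478). KDM6B had 2908, 2788, 1315 and 2339 bases, and thus also more bases in MV4-11 sh-ANP32B than in MV4-11 NC.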

How the data were processed

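H3K27ac CUT&Tag was made with an antibody from Abcam and a Vazyme kit. Per its methods, the study used Bowtie2 (v2.2.5) for alignment to hg38 and Picard against duplicates. Replicates were then combined by samtools (v1.15.1), and the threshold in MACS2 (v2.2.7) was a q-value of 0.01. The submitters' processing notes name Bowtie2 2.4.4 and MACS3 3.0 instead, and which versions made the lists is not settled. Whether IgG served as the control is not stated, and the 2 IgG libraries are not analysed here. The deposited lists gave each peak's sequence name, start, end and length, with no score, signal or q-value column.

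Bases under peaks were counted with Python 3.11.15 (numpy 2.4.6, pandas 2.3.3) around the canonical GENCODE v44 start and over the locus. Genes with 0 bases in both libraries of a comparison entered no count. The counting code was tested on peaks of the Kasumi-1 NC list against a direct base-by-base count. Genes of the other lists were named where a promoter peak was present in 1 library of a line only, or where a list's NC value was highest. A set limit of 6 per list was exceeded for receptors and adaptors and for response genes. IKBKB was named outside this rule. Members and lists were chosen with earlier results of these data known. Groups came from the sample labels. Alternatives were other windows and flanks, all transcript starts, peak width, joining of peaks and removal of peaks at other genes' promoters.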

Additional observations from a re-analysis of the deposited data

Results flagged for a closer look

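With 1 library per group, a result was listed here where sh-ANP32B minus NC had opposite signs in Kasumi-1 and MV4-11, and this difference between the lines was not tested. In the promoter window the difference in bases under peaks was -130 in Kasumi-1 and 919 in MV4-11 for NFKB2, -71 and 296 for RELB, -32 and 105 for NFKBIE, and -267 and 399 for TNFAIP3. REL had the reverse order, with 83 in Kasumi-1 and -175 in MV4-11. In the locus the difference was -329 and 919 for NFKB2, 24 and -928 for REL, 36 and -860 for BIRC3, and -201 and 140 for TNF, with Kasumi-1 given first. The BIRC3 value came from the peak at the start of BIRC2. The TNF value in MV4-11 included the promoter peak of LST1, of 1214 bases in NC and 1869 in sh-ANP32B. With peaks at promoters of other genes left out, TNF went from 1159 to 644 bases in MV4-11, a difference of -515, beside -128 in Kasumi-1, so the signs were no longer opposite. With peaks at most 1000 bases apart joined, TNF in MV4-11 went from 2847 to 2513. The median difference over all genes, where a promoter peak was present in both lists of a line, was 5 bases in Kasumi-1 and -211 in MV4-11.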

How the results depend on the processing

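No paired analysis was possible because each group had 1 peak list and no result came from a test. Neither depth nor peak height was in the lists, so a narrow peak near the caller's limit could not be weighed against a strong one. In the promoter window of MV4-11, where 2 genes had fewer bases in sh-ANP32B, 1 had fewer with a window of 1000 bases to each side (6 had more) and 1 with only peaks of at least 1000 bases (5 had more). A window of 5000 bases, all transcript starts, or joining peaks at most 1000 bases apart left 3 with fewer and 4 with more. Across the 5 settings computed for all genes, between 20.5% and 22.4% had more. In the locus of MV4-11, 5 genes had fewer bases, 2 with only peaks of at least 1000 bases, 7 with a flank of 50000 bases and 6 with peaks at other genes' promoters left out (3 had more in each of the latter). Between the NC loci, 8 had fewer in MV4-11, and 5 with peaks at other genes' promoters left out. NFKB2 in the MV4-11 locus changed sign with a flank of 50000 bases, from 919 to -691. The cause was not tested. In Kasumi-1 the promoter count of 6 was 5 or 6 under all alternatives, and the NC promoter count of 8 was 7 or 8. A common minimum width (357 bases) and joining gap (358 bases) left all 6 counts of genes with fewer bases as they were, but NFKB2 in the MV4-11 promoter window no longer passed 1.5 times, and in the MV4-11 locus TNFAIP3 turned from -104 to 236 and RELB from 282 to -61. Of the 60 differences for single genes in each comparison, the sign under an alternative was opposite to that reported in 1 promoter value in Kasumi-1, 5 in MV4-11 and 1 between the NC libraries, and in 5, 11 and 6 locus values.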
